A study of Mus musculus with 6 samples.

Results

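The immediate early genes Fos, Fosb, Junb, Egr1, Arc, Ier2, Nr4a1 and Dusp1 were examined in olfactory epithelium of 3 Harlequin mice and 3 littermate controls. They were chosen by name, as every probe set whose gene symbol in the platform annotation was exactly one of these 8 symbols. That gave 8 probe sets, 1 for each gene, of 45101 on the array, and 8 of the 18193 genes named there. The Harlequin mice were males hemizygous for the Harlequin allele (Hq/Y) of Aifm1, formerly Pdcd8, on the strain B6CBACAw-J/A-Pdcd8-Hq/J. The controls were +/Y males, called littermates in the titles and given as strain B6CBACa. The strain names differ with the genotype, so any difference in background and the genotype cannot be told apart. Aifm1 encodes the mitochondrial protein AIF and is X-linked, and the allele is carried in the germ line, so every cell of the mutant bears it. All 6 mice were 6 months old, and each was hybridised to 1 Affymetrix array. Per the labels' protocols they were killed with carbon dioxide, the epithelium was dissected quickly and frozen in liquid nitrogen. The labels name no odour exposure or other stimulus.

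Immediate early genes are transcribed within minutes of a stimulus, without new protein synthesis. In neurons calcium entry and cyclic AMP drive them through the kinases of the ERK pathway, the cyclic AMP response element binding protein CREB, and serum response factor with its ternary complex partners. In olfactory sensory neurons odour stimulation raises Fos, Egr1 and Arc. The same genes also respond in most tissues to growth factors, injury, hypoxia and the handling of tissue after death. Their transcripts are short-lived, so a bulk measurement takes in the state of the tissue around the moment of collection.

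RefSeq promoter sequences on GRCm38.p6, from 250 bases before to 50 bases after a gene's start, were matched by symbol for 5 of the 8 genes, namely Fos, Fosb, Junb, Nr4a1 and Dusp1. The 250 bases before the start are printed for 4 of them, Fos and Junb because their signals ran in the same order over the 6 arrays, Nr4a1 because its genotypes did not overlap, and Dusp1 because it holds a complete cyclic AMP response element. Capitals mark TGACG, the core of the cyclic AMP response element, on either strand (CGTCA when it lies on the other strand), the complete element TGACGTCA, and TATAAA. The windows are chr12:85473640-85473889 (plus strand) for Fos, chr8:84978749-84978998 (minus strand) for Junb, chr15:101266596-101266845 (plus strand) for Nr4a1 and chr17:26508473-26508722 (minus strand) for Dusp1.
Fos: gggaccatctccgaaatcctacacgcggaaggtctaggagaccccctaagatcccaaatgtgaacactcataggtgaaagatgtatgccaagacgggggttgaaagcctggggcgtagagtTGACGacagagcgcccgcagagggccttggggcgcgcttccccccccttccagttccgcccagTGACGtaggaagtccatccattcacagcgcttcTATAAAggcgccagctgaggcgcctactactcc
Junb: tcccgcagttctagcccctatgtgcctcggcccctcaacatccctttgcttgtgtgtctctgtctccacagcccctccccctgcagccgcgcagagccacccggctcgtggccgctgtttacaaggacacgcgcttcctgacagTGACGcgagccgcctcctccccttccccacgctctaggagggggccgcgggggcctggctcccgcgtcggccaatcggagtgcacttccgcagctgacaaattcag
Nr4a1: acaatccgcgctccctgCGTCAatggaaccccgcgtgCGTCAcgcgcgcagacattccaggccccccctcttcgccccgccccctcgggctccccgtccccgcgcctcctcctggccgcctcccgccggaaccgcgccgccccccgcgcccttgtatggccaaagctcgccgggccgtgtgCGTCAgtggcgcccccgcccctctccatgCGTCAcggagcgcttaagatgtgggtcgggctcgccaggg
Dusp1: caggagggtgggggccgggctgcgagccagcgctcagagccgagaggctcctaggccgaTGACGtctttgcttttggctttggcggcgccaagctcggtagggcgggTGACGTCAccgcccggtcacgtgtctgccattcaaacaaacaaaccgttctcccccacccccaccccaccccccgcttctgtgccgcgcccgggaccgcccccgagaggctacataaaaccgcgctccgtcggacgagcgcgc

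The core TGACG, searched like all motifs here on both strands, was present in all 5 windows of 300 bases, against 20.8% of 32851 promoter windows in the table. Fos held it at 129 to 125 and at 66 to 62 bases before the start, Junb at 106 to 102 and Fosb at 60 to 56. Nr4a1 held 4 copies, all on the other strand, at 233 to 229, 213 to 209, 69 to 65 and 40 to 36 bases before the start. The complete element TGACGTCA was found in Dusp1 alone of the 5, at 143 to 136 bases before the start, and in 1.79% of all windows. Dusp1 held the core at 191 to 187 bases before the start and, within the complete element, at 143 to 139 and on the other strand at 140 to 136. TATAAA, present in 13.6% of all windows, lay 33 to 28 bases before the Fos start and at bases 1 to 6 of the Junb transcript as annotated, outside the printed stretch. The CArG box, the core of the serum response element, was in 0 of the 5 windows and in 1.63% of all windows, and the AP-1 site TGANTCA in 0 of the 5 and 7.81% of all. These are matches of letters and were not tested against the expression values. Sites farther than 250 bases before a start, or near Arc, Egr1 and Ier2, were not searched.

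The deposited values are linear signals scaled to a common trimmed mean, analysed as log2(signal + 16). A fold change is given as Harlequin over control on that scale, which understates differences of dim genes. Genes with a mean above the 40th percentile of probe sets, a signal of 61.1, were tested in limma, 13219 in all, and those with a Benjamini-Hochberg adjusted p under 0.05 are called changed. Of the 8 genes, 6 lay above this filter and Arc and Fosb lay below it. The mutated gene itself bore out the labels. Aifm1 was at 335.4, 221.1 and 211.2 in Harlequin mice and 1239.9, 1255.6 and 1128.2 in controls (log2 fold change -2.20, SE 0.18, limma adjusted p = 0.0158). Its call was lost without an intensity trend (limma adjusted p = 0.0887), with the replicate number as a block (0.0605) and without any 1 of the controls (0.0616 to 0.097). The olfactory marker protein Omp, the classical marker of mature olfactory neurons, ranged from 15891.8 to 18821.7 in Harlequin mice and differed from controls by a log2 of 0.04 (limma adjusted p = 0.986). The summed signal of 8 mature olfactory neuron markers was 106000 to 110506 in Harlequin mice and 103131 to 113789 in controls. In a bulk sample, fewer cells of a type and less RNA per cell cannot be told apart.

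None of the immediate early genes passed the test, 0 of 6 against 0.0303% of all genes, or 4 of 13219 (2 lower and 2 higher, 0.0151% each). For every tested member other than Nr4a1 the difference between the genotypes was smaller than the SD within genotypes. Nr4a1 averaged 64.1% of the control signal in Harlequin mice, without overlap, at an unadjusted p of 0.0127 and a limma adjusted p of 0.981. Of the 6 tested genes, 5 were lower and 1 was higher in Harlequin mice, with a median log2 difference of -0.13 over the members and 0.00005 over all genes. Without Harlequin replicate 3 this median was 0.038, without Harlequin replicate 1 it was -0.35 and without control replicate 2 it was -0.31. The signal of the genes on every array is shown first.

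**Figure D1:**
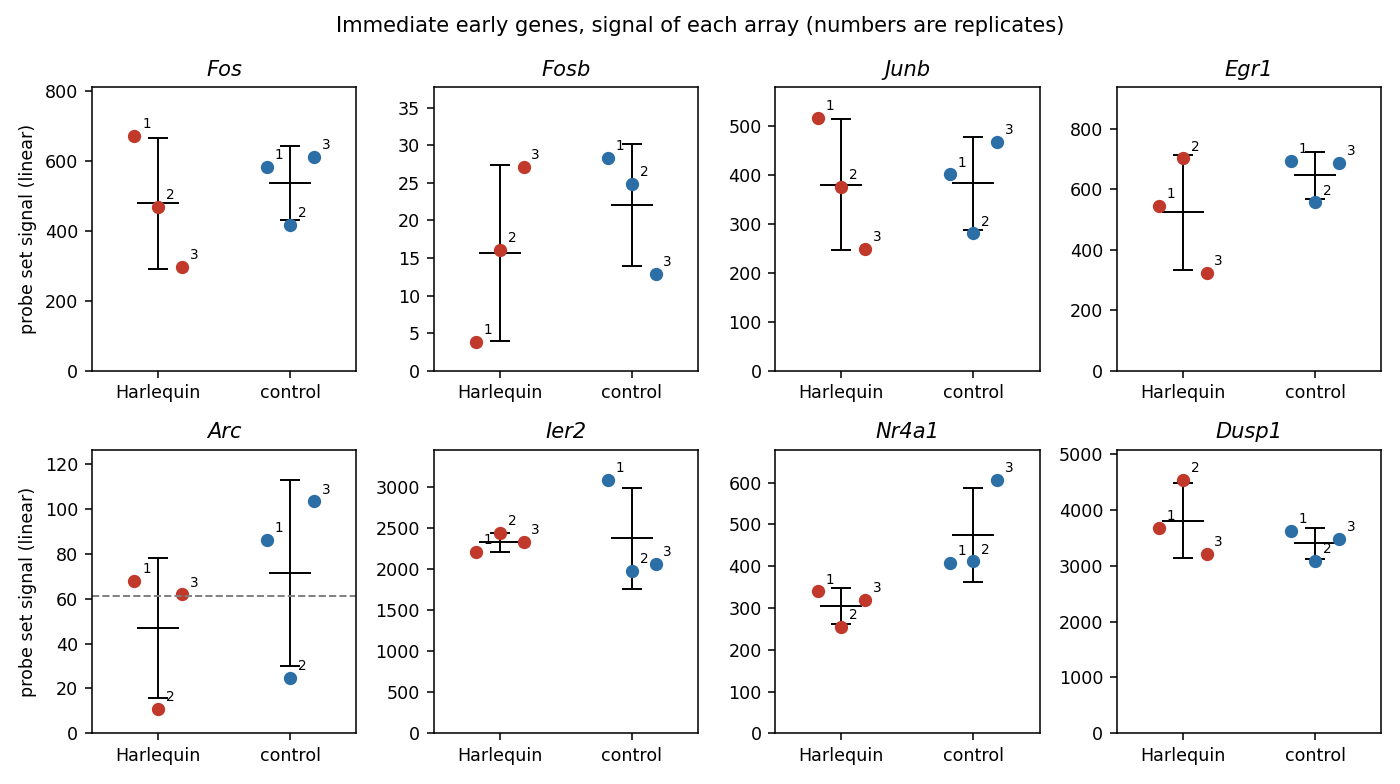
Probe set signal (linear, from 0) of the 8 immediate early genes on each array, with Harlequin mice in red on the left and controls in blue on the right of each panel. Points are mice, numbered by replicate, bars are the mean ± SD of 3, and the dashed line in the Arc panel is the filter signal of 61.1, which lies above the axis for Fosb; Nr4a1 is the 1 gene whose genotypes do not overlap.

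Fos and Junb encode subunits of the transcription factor AP-1, in which a Fos protein pairs with a Jun protein. Fos had signals of 670.2, 467.0 and 297.6 in Harlequin mice, against 583.2, 415.8 and 609.9 in controls. The highest and the lowest of the 6 arrays were thus both Harlequin, and the genotypes overlapped. Fos averaged 478 ± 187 in Harlequin mice and 536 ± 105 in controls (SD, n = 3 each), a log2 difference of -0.21 (95% interval -0.85 to 0.42, limma adjusted p = 0.982). Junb had signals of 516.0, 376.1 and 248.0 in Harlequin mice, against 400.7, 280.5 and 467.0 in controls. Again Harlequin replicates 1 and 3 bounded the whole range. Junb averaged 380.0 ± 134 in Harlequin mice and 383 ± 94.5 in controls (SD, n = 3 each; log2 difference -0.04, 95% interval -0.67 to 0.59, limma adjusted p = 0.998). Between the highest and lowest Harlequin mouse Fos differed 2.25-fold and Junb 2.08-fold. In controls the corresponding ratios were 1.47 for Fos and 1.66 for Junb. Leaving out Harlequin replicate 3 turned the Fos difference to 0.079 and the Junb difference to 0.22.

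Fosb, the other Fos family member of the set, was dim on every array. Its signal was 3.8, 16.1 and 27.1 in Harlequin mice and 28.3, 24.9 and 12.9 in controls, so all 6 values lay below the filter signal. In a fit over all 34945 probe sets naming 1 gene, of which 0.02% passed, Fosb did not, and its log2 difference was -0.31 (95% interval -1.08 to 0.46, limma adjusted p = 0.983). At this signal a difference could not be resolved.

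Egr1 is a zinc finger transcription factor and Nr4a1 an orphan nuclear receptor, both induced by neuronal activity and by growth factors. Egr1 had signals of 545.5, 702.5 and 323.1 in Harlequin mice, against 694.6, 557.0 and 688.5 in controls. Harlequin replicate 2 was the highest of all arrays and Harlequin replicate 3 the lowest. Egr1 averaged 524 ± 191 in Harlequin mice and 647 ± 77.7 in controls (SD, n = 3 each; log2 difference -0.36, 95% interval -0.94 to 0.23, limma adjusted p = 0.981). Leaving out Harlequin replicate 3 brought its difference to -0.054, and leaving out Harlequin replicate 2 to -0.60.

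Nr4a1 had signals of 339.6, 255.3 and 318.8 in Harlequin mice, against 408.2, 411.8 and 605.9 in controls. Every Harlequin value lay below every control value, while control replicate 3 stood well above the other controls. Nr4a1 averaged 305 ± 43.9 in Harlequin mice and 475 ± 113 in controls (SD, n = 3 each). The log2 difference was -0.60 (SE 0.19, 95% interval -1.04 to -0.17), and the limma adjusted p of 0.981 did not pass. Of all genes tested, 4.58% had an unadjusted p under 0.05 (2.58% lower in Harlequin mice) and 5.34% lay without overlap below the controls, and 1 of 6 members did both. By exact permutation of the 6 mice, two-sided, p was 0.1, and 3 against 3 can go no lower. With 1 array left out the difference ranged from -0.70 to -0.42, the smallest without control replicate 3. Markers of vessel and matrix cells lay in the same direction, with 0 of either list changed. Lower in Harlequin mice were 8 of 8 endothelial and mural markers (median log2 difference -0.23) and 8 of 8 fibroblast and matrix markers (-0.42). Sustentacular and gland (7 of 8, -0.17), respiratory (4 of 5, -0.13) and immature neuron markers (4 of 6, -0.04) were mostly lower too. Mostly higher were mature neuron (7 of 8, 0.03), horizontal basal (3 of 4, 0.12) and macrophage markers (6 of 8, 0.13). So were neutrophil (6 of 6, 0.80), red cell (4 of 4, 1.45) and olfactory bulb markers (2 of 3, 0.008). The endothelial and mural score, a mean log2 deviation, was -0.18, -0.11 and -0.15 in Harlequin mice and 0.03, 0.19 and 0.22 in controls. Of these 8 markers, 2 lay without overlap below the controls, against 5.34% of all genes. Cldn5, a tight junction gene of endothelium, was 1 of the 2 (log2 difference -0.43, limma adjusted p = 0.981). The part of these cells in the Nr4a1 difference was not tested. The related receptor genes Nr4a2 and Nr4a3 differed by a log2 of -0.11 (limma adjusted p = 0.986) and -0.23 (limma adjusted p = 0.982).

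Ier2 encodes a short nuclear protein of the immediate early response. Its signal was 2209.6, 2443.0 and 2339.2 in Harlequin mice, against 3086.6, 1978.0 and 2067.6 in controls. The Harlequin mice lay close together inside the wider range of the controls, of which replicate 1 was high. Ier2 averaged 2331 ± 117 in Harlequin mice and 2377 ± 616 in controls (SD, n = 3 each), and the mean log2 value was 11.20 in both genotypes, with a 95% interval of the difference from -0.37 to 0.37 (limma adjusted p = 0.9999).

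Dusp1 and Arc are effectors rather than transcription factors. Dusp1 encodes a phosphatase that inactivates mitogen-activated protein kinases and so feeds back on the pathway that induces it. Its signal was 3672.7, 4530.8 and 3211.4 in Harlequin mice, against 3628.3, 3091.4 and 3479.1 in controls. It was the 1 tested member with a higher mean in Harlequin mice, 3805 ± 670 against 3400 ± 277 in controls (SD, n = 3 each), but the genotypes overlapped (log2 difference 0.15, 95% interval -0.15 to 0.45, limma adjusted p = 0.982). Without Harlequin replicate 2 the difference was 0.018. Arc encodes an activity-regulated cytoskeletal protein of neurons that acts at synapses. Its signal was 68.1, 10.9 and 62.0 in Harlequin mice and 86.3, 24.6 and 103.4 in controls, above the filter signal on 4 of 6 arrays. Replicate 2 was the dim one in both genotypes. In the fit over all probe sets Arc differed by a log2 of -0.50 (95% interval -1.75 to 0.75, limma adjusted p = 0.983).

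**Figure D2:**
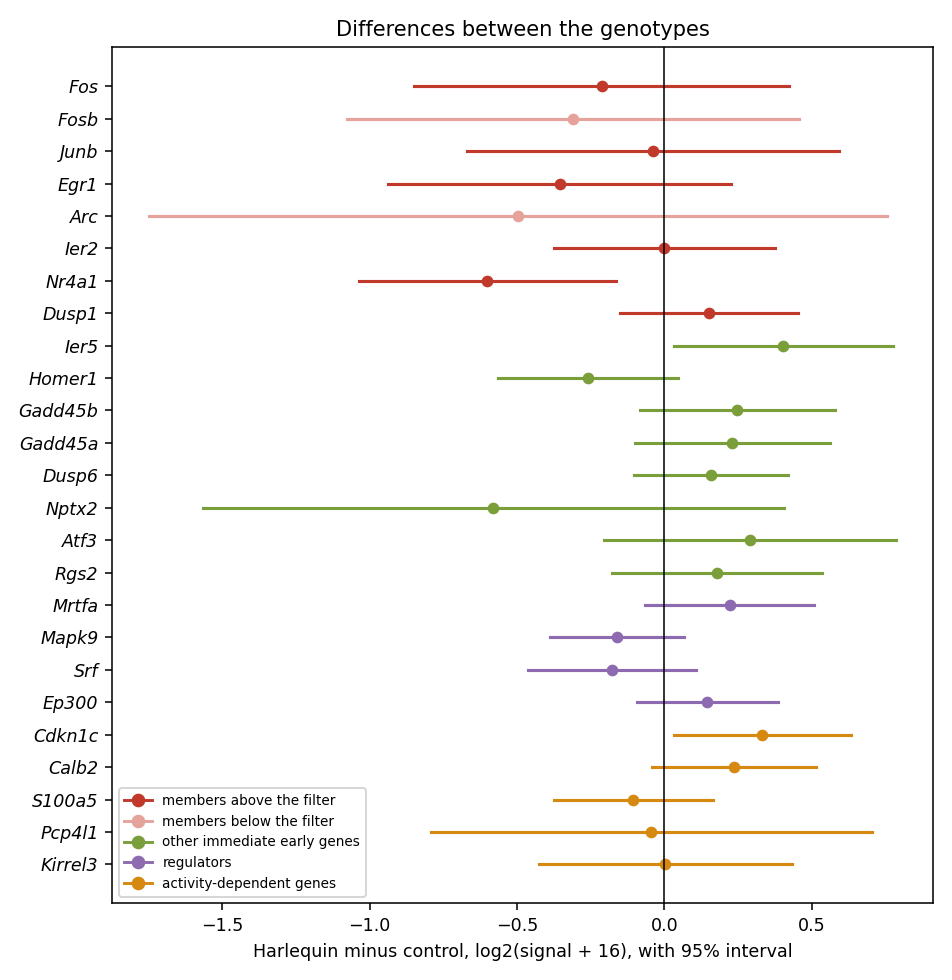
Difference between the genotypes (x axis, Harlequin minus control, log2(signal + 16)) with its 95% interval from limma, for the 8 immediate early genes, the other immediate early genes and regulators with the smallest p, and the activity-dependent genes of olfactory neurons. All intervals span 0 except those of Nr4a1, Ier5 and Cdkn1c, and no gene drawn passed after adjustment over all genes.

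The mice of a genotype differed more from each other in these genes than in most. The SD within genotypes was 0.45 log2 units for Fos, 0.44 for Junb and 0.41 for Egr1, against a median of 0.18 over all genes tested. These 3 exceeded 92.6%, 92.1% and 90.4% of all genes. Ier2 at 0.25 (71.3% of genes), Nr4a1 at 0.27 (73.7%) and Dusp1 at 0.20 (55.9%) were less extreme. Among the 1000 genes nearest in mean signal, the share with a smaller SD was 95.7% for Fos, 92.7% for Junb, 94.6% for Egr1, 89.7% for Ier2, 72.0% for Nr4a1 and 82.1% for Dusp1. All 6 lay above the median SD of all genes, as did 34 of 50 other immediate early genes (68%) and, by definition, 6609 of the 13219 genes. Over the 90th percentile, an SD of 0.40, lay 3 of the 6 members, 14 of the 50 others (28%) and 1322 of 13219 genes. The spread is not particular to these genes, since 6 of 6 neutrophil and 4 of 8 fibroblast markers also lay above that level.

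**Figure D3:**
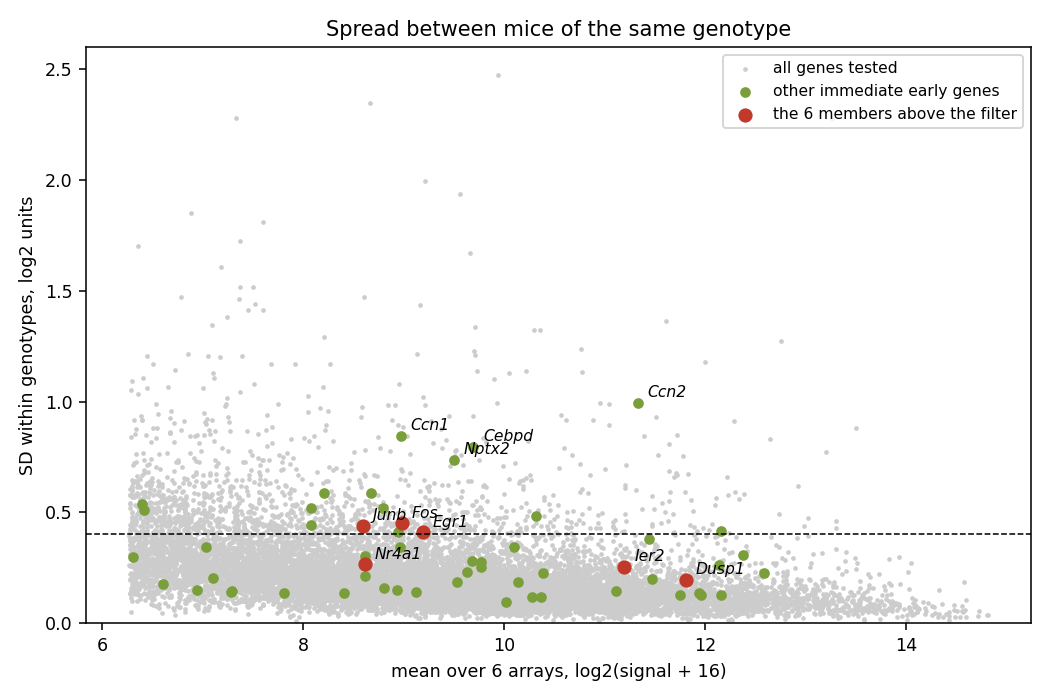
SD within genotypes (y axis, log2 units) against the mean over 6 arrays (x axis, log2(signal + 16)) for the 13219 genes tested (grey), the 50 other immediate early genes (green) and the 6 members above the filter (red). The dashed line is the 90th percentile of all genes, 0.40, with Fos, Junb and Egr1 above it and Ier2, Nr4a1 and Dusp1 below it.

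Fos and Junb followed each other over the mice. In both genes the arrays ran in the order Harlequin 1, control 3, control 1, Harlequin 2, control 2, Harlequin 3 from high to low. Over the 6 arrays Pearson's r was 0.96 and Spearman's rho was 1 (exact permutation p = 0.00278 for each, the smallest that 6 arrays allow, and 0.0417 adjusted over the 15 pairs of tested members). Without the 2 arrays farthest from the Fos median r was 0.92, and for the deviations from each genotype's mean it was 0.985. Of all genes, 19 of 13218 genes correlated more closely with Fos than Junb did. The remaining 14 pairs did not pass after adjustment, with r between -0.51 for Nr4a1 with Dusp1 and 0.75 for Fos with Egr1 (exact permutation p = 0.192, adjusted p = 0.767), where rho was 0.20 (exact permutation p = 0.714). For Egr1 with Dusp1, r was 0.55 over the arrays and 0.94 for the deviations from the genotype means, a value chosen after it was seen. For Nr4a1, r was 0.39 with Fos, 0.28 with Junb, 0.28 with Egr1, -0.27 with Ier2 and -0.51 with Dusp1 (exact permutation p of 0.272 to 0.614). Of the 15 pairs, 13 had a positive r, with a median of 0.35.

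**Figure D4:**
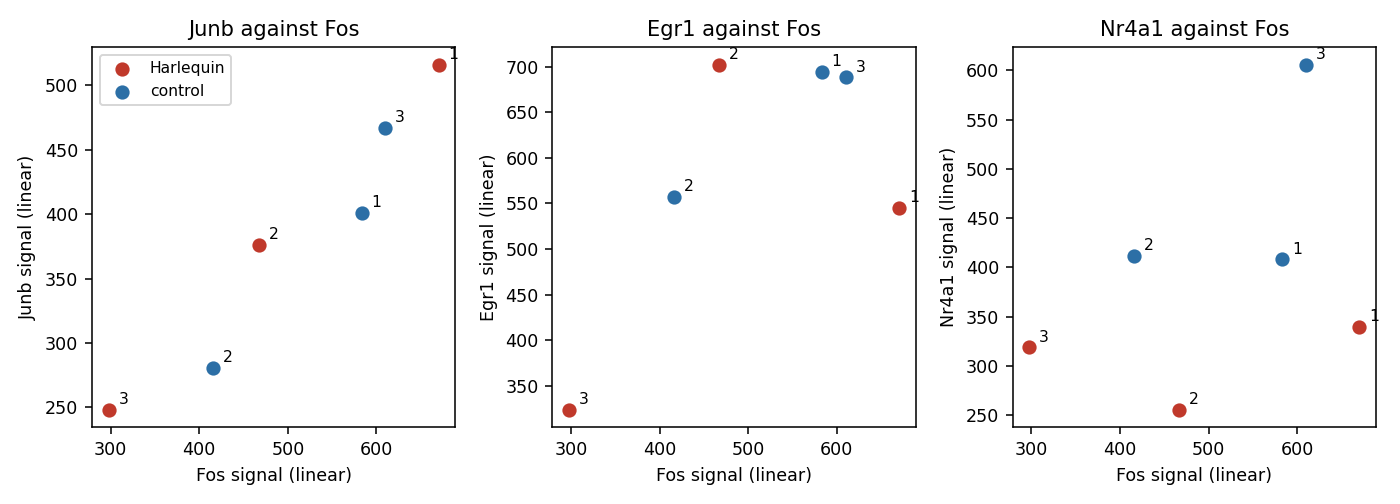
Signal (linear) of Junb, Egr1 and Nr4a1 (y axes) against Fos (x axes) on the 6 arrays, with Harlequin mice in red, controls in blue and the replicate number beside each point. Junb rises with Fos over both genotypes, Egr1 does so less closely, and the Harlequin points lie below the control points for Nr4a1.

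Harlequin replicate 3 was the lowest array for 3 of the 6 tested members and among the lowest pair for 5, and control replicate 2 was the lowest for 2 and among the lowest pair for 4. Control replicate 1 was above the mean of the 6 arrays for 6 of 6 members. For these counts by single array the share over all genes was not worked out, so they test nothing. The same pair of arrays, Harlequin replicate 3 and control replicate 2, was the lowest for Fos, Junb and Dusp1, 3 of 6 members, against 5.51% of all genes and 2 of 50 other immediate early genes. The pair was picked after the members' values were seen, and Fos and Junb share 1 order, so the count describes these arrays and tests nothing. Those arrays also had the lowest ratios of 3' to 5' Gapdh probe signal, a measure of RNA integrity and labelling. In this measure a higher ratio, not a lower one, marks degraded RNA. The ratio was 0.790, 0.787 and 0.729 in Harlequin mice and 0.779, 0.740 and 0.846 in controls. With this ratio Fos had r = 0.78 (exact permutation p = 0.0472) and rho = 0.89 (p = 0.0333), and Junb had r = 0.84 (exact permutation p = 0.0389) and rho = 0.89 (p = 0.0333). With the actin ratio Nr4a1 had r = 0.86 (exact permutation p = 0.0472) and rho = 0.77 (p = 0.103), and r = 0.18 without the 2 arrays farthest from the median ratio. Fos and Junb had r = 0.56 and 0.57 with the actin ratio (exact permutation p = 0.133 and 0.183). None of 12 such relations, 6 genes with the Gapdh and the actin ratio, passed after adjustment (lowest adjusted p = 0.189 for r and 0.20 for rho). Without the 2 arrays farthest from the median Gapdh ratio r was 0.73 for Fos and 0.88 for Junb. The part of RNA quality in the order of the arrays was not tested further.

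Ranked by likeness to the mean profile of the 6 tested members over the 6 arrays, the closest genes were Hcst (r = 0.997), Ccdc97 (0.990), Rdh14 (0.981), Pxn (0.972), Gltp (0.972), Cmtm7 (0.970), Prxl2c (0.967), Hspb8 (0.966), Slc25a23 (0.965) and Camk1d (0.955). None of these 10 is in the list of other immediate early genes. Hcst, an adaptor of activating receptors on lymphoid cells, was at 130.0, 120.3 and 76.0 in Harlequin mice and 149.7, 100.3 and 155.0 in controls. Of all 13213 genes compared, 14.3% had r over 0.5. The same was true of 7 of 50 other immediate early genes (14%). These values are a description over 6 arrays, which share scaling and RNA quality. The nearest of them were Btg2, an antiproliferative gene (r = 0.87), Klf6, a zinc finger factor (0.76), and Zfp36, which encodes the mRNA-destabilising protein tristetraprolin (0.75).

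Of the wider immediate early response, 57 other genes were listed, all on the array, and 50 were tested. None passed the test, against 0.0303% of all genes, and 24 were higher and 26 lower in Harlequin mice, with a median log2 difference of -0.01. An unadjusted p under 0.05 was reached by 1 of the 50, against 4.58% of all genes. This was Ier5, a relative of Ier2, at 1032.6, 977.1 and 712.3 in Harlequin mice and 727.7, 592.9 and 708.3 in controls (log2 difference 0.40, limma adjusted p = 0.981). For Ier5 a further pair of probe sets gave -0.13 and 0.48. The next by p were the synaptic scaffold gene Homer1 (-0.26), the growth arrest genes Gadd45b (0.25) and Gadd45a (0.23), the ERK phosphatase gene Dusp6 (0.16), the secreted pentraxin Nptx2 (-0.58), the stress-induced factor Atf3 (0.29) and the G-protein regulator Rgs2 (0.18). Each of these 7 overlapped between the genotypes, with limma adjusted p of 0.981 to 0.982. With 1 array left out Nptx2 ranged from -0.98 without Harlequin replicate 2 to -0.15 without Harlequin replicate 3. Rgs2 ranged from 0.063 without Harlequin replicate 1 to 0.32 without Harlequin replicate 3. In the mean over probe sets Homer1 was -0.17, Gadd45b 0.11, Nptx2 -0.49, Rgs2 0.12 and Ier5 0.25. Further probe sets ranged from -0.34 to -0.01 for Homer1 and gave 0.12 and -0.05 for Gadd45b. The other 7 listed genes lay below the filter, among them Npas4, a neuron-specific factor induced by calcium entry, at 4.2 to 16.8 in Harlequin mice and 4.7 to 12.1 in controls. Egr2 was at 12.6 to 44.8 in Harlequin mice and 7.2 to 43.1 in controls, and Egr4 at 9.3 to 51.5 in Harlequin mice and 18.1 to 61.0 in controls.

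Some of the other immediate early genes were high in replicate 3 of both genotypes. The genes and the grouping described here were chosen for their spread after the values were seen. Ccn2, which encodes connective tissue growth factor, was at 1770.3, 2159.3 and 4739.7 in Harlequin mice and 1502.0, 1567.4 and 6432.3 in controls. Replicate 3 was thus the high one in both genotypes. Ccn1, a related matrix-associated protein, was at 269.6, 439.0 and 841.6 in Harlequin mice and 389.1, 316.2 and 1039.2 in controls. Cebpd, a transcription factor of the acute phase response, was at 733.2, 784.9 and 1207.1 in Harlequin mice and 397.6, 601.4 and 1696.9 in controls. Fos in these 2 high mice was at 297.6 in the Harlequin mouse, the lowest of the 6 arrays, and at 609.9 in the control, the second highest. Harlequin replicate 3 and control replicate 3 were the 2 highest arrays for 11 of 50 other immediate early genes (22%), for 0 of 6 members and for 9.03% of all genes, and whether the members differ in this from other genes was not tested. The 11 were Ccn1, Ccn2, Cebpb, Cebpd, Dusp2, Errfi1, Fosl2, Gadd45g, Nfkbia, Sgk1 and Tiparp. Nptx2 ran the other way, at 603.3, 1010.1 and 311.6 in Harlequin mice and 844.2, 1383.6 and 561.9 in controls, with replicate 3 the lowest of each genotype. Fibroblast and matrix markers did not share this order, with a mean log2 deviation of -0.52, 0.39 and -0.52 in Harlequin mice and 0.48, 0.30 and -0.14 in controls.

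**Figure D5:**
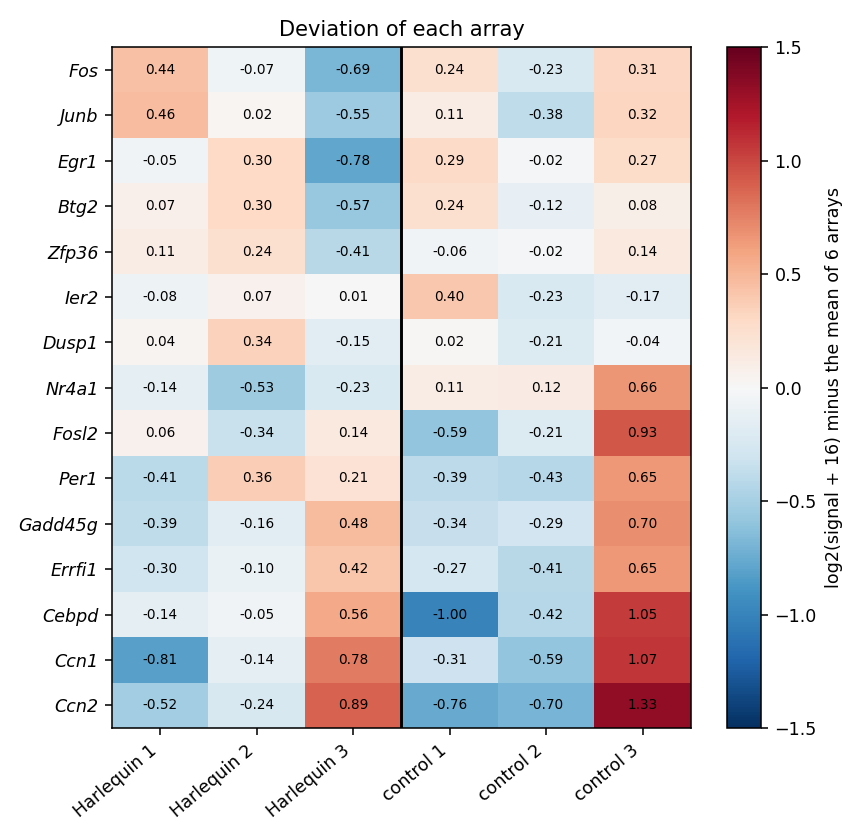
Deviation of each array (columns, Harlequin left of controls) from the mean of 6 arrays, in log2(signal + 16), for the 6 members above the filter and 9 other immediate early genes chosen after their values were seen. Fos, Junb, Egr1, Btg2 and Zfp36 are lowest in Harlequin 3, whereas Ccn1, Ccn2, Cebpd, Errfi1 and Gadd45g are highest in control 3 and Harlequin 3.

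Genes that induce the immediate early response showed no difference that passed. Of 28 listed regulators 23 were on the array under a single name and 22 were tested, with 0 changed, 13 higher, 9 lower and a median log2 difference of 0.04. The 4 with the smallest p were Mrtfa, a coactivator of serum response factor (0.22), Mapk9, a stress-activated kinase (-0.16), Srf, serum response factor itself (-0.18), and the acetyltransferase gene Ep300 (0.15), each with a limma adjusted p of 0.981. Srf was at 408.2, 373.2 and 409.6 in Harlequin mice and 413.0, 473.0 and 469.1 in controls, while its other probe set differed by 0.26 and the mean over both by 0.04. Mrtfa lay without overlap above the controls, 1 of 22 regulators against 5.02% of all genes. Srf and Mapk9 lay without overlap below them, 2 of 22 against 5.34% of all genes. The other Mapk9 probe sets differed by a log2 of -0.29 and -0.05. In one direction or the other, 10.4% of all genes did not overlap.

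Genes whose level in olfactory neurons is set by activity over longer times were compared as well, with 5 of 6 listed tested and 0 changed. S100a5, a calcium-binding protein raised in stimulated olfactory neurons, was at 21305.5, 26566.7 and 22976.6 in Harlequin mice and 25838, 28971 and 21655.2 in controls (log2 difference -0.11, 95% interval -0.37 to 0.16, limma adjusted p = 0.982). Its difference was -0.0084 without control replicate 2 and -0.22 without control replicate 3. Pcp4l1 differed by -0.04 (95% interval -0.79 to 0.70), the adhesion gene Kirrel3 by 0.0028 (-0.43 to 0.43; other probe sets -0.20 and 0.19) and calretinin, Calb2, by 0.24 (-0.04 to 0.51). Cdkn1c, a cell cycle inhibitor, was at 336.5, 375.6 and 322.7 in Harlequin mice and 270.9, 271.2 and 268.3 in controls (log2 difference 0.33, limma adjusted p = 0.981). It was the 1 gene of the 5 without overlap, above the controls, where 5.02% of all genes lay.

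Heat shock and stress genes, which can move with the handling of tissue, had 10 of 10 listed genes tested and 0 changed, with 6 higher, 4 lower and a median log2 difference of 0.05. Their mean log2 deviation was 0.21, 0.04 and -0.17 in Harlequin mice and -0.07, 0.05 and -0.05 in controls. In Harlequin mice it thus ran in the order of Fos and Junb, highest in replicate 1 and lowest in replicate 3, whereas in controls it did not. This order was taken from Fos and Junb after their values were seen. Its share over all genes was not counted, so a count of it tests nothing. Of the 10 genes, 6 had this order in the Harlequin mice and 2 were highest in Harlequin replicate 3. The 2 were Hmox1, which encodes heme oxygenase, at 642.2, 631.8 and 840.3 in Harlequin mice and 720.2, 503.4 and 789.9 in controls, and the chaperone gene Hspa5, at 8583.9, 7733 and 8796.8 in Harlequin mice and 7945.5, 7835.5 and 9067 in controls. Among the 6 were Hsph1, Hspb1, Hspa1b and Ddit3. Hspa1a, also given here, did not have that order and was lowest in Harlequin replicate 2. Hsph1, a heat shock chaperone, was at 1857.1, 1519.4 and 804.4 in Harlequin mice and 1403.8, 1625.6 and 1085.1 in controls. The small heat shock protein gene Hspb1 was at 6061.9, 5345.6 and 3199.8 in Harlequin mice and 4722.3, 3949.9 and 3907.1 in controls. Hspa1b, an inducible chaperone gene, was at 1761.1, 1034.2 and 994.6 in Harlequin mice and 687.4, 1512.9 and 1407.8 in controls, and its other probe sets differed by log2 values of -0.29 and 0.23. Hspa1a, at 405.2, 389.9 and 404.5 in Harlequin mice and 446.1, 514.3 and 437.7 in controls, differed by a log2 of -0.21 (limma adjusted p = 0.981), and by -0.14 without control replicate 2. The stress factor gene Ddit3 differed by 0.31 (limma adjusted p = 0.981), by 0.12 without control replicate 3, by 0.08 at its other probe set and by 0.19 in the mean over probe sets.

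Markers of neutrophils and red cells had 0 of 6 and 0 of 4 tested genes changed (lowest limma adjusted p of 0.981 and 0.75). All 6 neutrophil markers were higher in Harlequin mice (median log2 difference 0.80), with 0 at an unadjusted limma p under 0.05. All 4 red cell markers were higher (median 1.45), and all 4 had an unadjusted limma p under 0.05, against 4.58% of all genes. The levels of both lists also varied over the arrays. Summed over 6 neutrophil markers the signal was 38831 to 57297 in Harlequin mice and 21075 to 49780 in controls, and summed over 4 red cell markers it was 3547 to 4190 in Harlequin mice and 909 to 2449 in controls. Control replicate 2, low for Fos, Junb, Ier2 and Dusp1, was also the lowest array for both lists, with a mean log2 deviation of -1.18 for neutrophil and -1.40 for red cell markers. In Harlequin replicate 3, which was low for Fos, Junb and Egr1, these deviations were 0.001 and 0.55. The part of these cells in the immediate early signal was not tested.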

How the data were processed

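Total RNA of microdissected olfactory epithelium from 3 Harlequin and 3 control mice was labelled and hybridised to 1 array each, and the titles gave each array's group and number. The authors deposited linear intensities for 45101 probe sets, and from the values the authors scaled each array to a mean of 500 after leaving out the lowest and highest 2%. The software that condensed probe cells into intensities is not given in the sources used here, and no detection calls were used. The number of arrays limits the precision. The limma p-values set a difference between the genotypes against the spread between mice of a genotype.

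The intensities were analysed as log2(value + 16). Control probe sets (64) were left out, and each of 18193 genes named by 34945 probe sets was represented by its brightest probe set. Of these, 13219 lay above the 40th percentile. They were fitted in limma 3.58.1 (R 4.3.3) with an intensity trend, 3 against 3, without further terms, with Benjamini-Hochberg adjustment. The procedure was tested on simulated data. Correlations used exact permutations over arrays (SciPy 1.17.1).

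The members and all gene lists were chosen with earlier results of these data known. Genes named were Aifm1, all members, the 8 other immediate early genes and 4 regulators with the smallest p, the activity-dependent and heat shock lists (7 of 10 heat shock genes described), and the 10 genes most alike to the members. Genes shown for their spread, the Nr4a relatives, the genes nearest in profile among the list, Omp, Cldn5, Hmox1, Hspa5 and the dim genes were named after their values were seen. Alternatives changed the pseudocount (1 or 64), the filter (none, or the 60th percentile), the scaling (median or quantile), the moderation (no trend, robust, array weights) and the choice of probe set. Others added a block for the replicate number or dropped each array once.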

Additional observations from a re-analysis of the deposited data

How the results depend on the processing

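None of the 6 tested members and 50 other immediate early genes passed under any of the 18 alternatives run, wherever they had a value. Arc and Fosb entered only the alternative without a filter, where neither passed. The 7 other genes below the filter were not counted in any alternative. The median difference of the 6 tested members, -0.13, ranged from -0.35 to 0.04 with 1 array left out, turning positive without Harlequin replicate 3. The count of changed genes over the array, 4, was 0 without an intensity trend and 0 with the replicate number as a block, settings in which 643 and 541 genes had unadjusted p-values under 0.05, and 0 to 3 with 1 array left out. In both settings, which by construction leave the log2 difference of Aifm1 at -2.20, its call was lost (adjusted p of 0.0887 without a trend and 0.0605 with the block). It ranged from -2.40 to -2.08 with 1 array left out, where its call was lost without any one control. Same-numbered mice were not paired by the data (correlations of deviations from the genotype means of -0.24, -0.03 and 0.06), and the block changed no call of a member.

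The sign turned for Ier2, whose difference is near 0, at a pseudocount of 1 (0.00013) and with median scaling (0.030), for Srf with the mean over probe sets (0.039) and without the suffixes _s_at and _x_at (0.26), and for Kirrel3 with quantile normalization (-0.0060) and array weights (-0.014). With 1 array left out the differences ranged from -0.49 to 0.079 for Fos, -0.28 to 0.22 for Junb, -0.12 to 0.20 for Ier2, -0.35 to 0.23 for Pcp4l1, -0.20 to 0.16 for Kirrel3, -0.014 to 0.445 for Hspb1, -0.26 to 0.30 for Hspa1b and -0.29 to 0.31 for Hsph1, crossing 0 in each. Without crossing 0, moves of over 1.5 times with 1 array left out gave 0.10 to 0.27 for Dusp6, 0.14 to 0.29 for Gadd45a, 0.16 to 0.34 for Gadd45b, 0.14 to 0.33 for Calb2 and 0.080 to 0.21 for Ep300. Median scaling moved the median of all genes by a log2 of 0.03. Atf3 fell below the filter at the 60th percentile and has no value there. Arc and Fosb lay too near the lower end of the signal to resolve a difference.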
